A study of Mus musculus with 6 samples.

Results

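A set of 8 genes of cholesterol synthesis and its control by SREBP2 was followed in a mouse brown adipose cell line. MICT1 KO cells, knockout pools for the gene of the microprotein MICT1, were compared with control cells after differentiation and 6 h of 10 µM forskolin. In MICT1 KO cells 6 of the 8 genes were lower than in control cells, none was higher, and 2 did not pass the test, while 28.3% of all genes tested were lower and 56.9% differed in either direction. Hmgcs1, which makes HMG-CoA for the mevalonate pathway, fell most, to 29.4% of its level in control cells. Sqle and Fdps, which act further along the pathway, and Insig1, a sterol-responsive brake on SREBP, also fell. The decreases of Cyp51 and of Srebf2, the gene of the transcription factor itself, were smaller. Idi1 and Fdft1 were the 2 genes without a call, and their values overlapped between the groups. All 12 adipocyte markers examined were also lower in MICT1 KO cells, and their part in these differences was not tested.

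The genes were chosen by symbol from the rows of the deposited expression table. They are the enzyme genes Hmgcs1, Idi1, Fdps, Fdft1, Sqle and Cyp51 and the regulator genes Srebf2 and Insig1. All 8 were found among the 13283 genes of the table, and all 8 were among the 12507 genes tested, which had to reach a value of 10 in 3 or more libraries. None of the 8 encodes a lipoprotein receptor, so cholesterol uptake is described from a separate list of genes.

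RNA-seq was available for 6 libraries of an immortalized mouse BAT cell line that stably expresses Cas9. The 3 Scr libraries came from cells with a scrambled sgRNA (genotype WT in the labels), and the 3 MICT1 KO libraries came from cells with sgRNAs against MICT1. All 6 cultures had undergone brown adipocyte differentiation and received 10 µM forskolin, an activator of adenylyl cyclase, for 6 h on day 6. No untreated or undifferentiated cells were measured. The knockout cells were pools and not clones, and the labels do not say which sgRNA was used for which MICT1 KO library. MICT1 RNA was not analysed here, and the knockout was taken from the labels. The study's methods describe its replicates as biological replicates.

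Each value is the authors' estimate of the reads of a gene, scaled by the size factor of its library, and is called a normalized value here. Library depth, recovered from these values, ranged from 15445812 to 17925627 estimated reads. All 12 adipocyte markers examined, among them Fabp4 and Adipoq, were present in the Scr cells, whereas 5 of 10 brown adipocyte markers were in the table used here. Ucp1, which encodes the heat-producing uncoupling protein, was low even in the Scr cells, with values of 20.77, 24.10 and 30.53 against 1.907, 1.054 and 9.329 in MICT1 KO, and it fell by 2.71 on the log2 scale (limma, adjusted p = 0.00113). The adipocyte markers differed strongly between the groups, with 12 of 12 lower in MICT1 KO cells and a median log2 fold change of -3.96. Their summed values were 131900 to 157600 in the Scr libraries and 15150 to 21790 in the MICT1 KO libraries. Summed progenitor and fibroblast markers, for which 9 of 12 genes were in the table, went from 36770 to 42170 in Scr to 59470 to 63100 in MICT1 KO. This rise lay largely in Col1a1, with means of 17960 in Scr and 30600 in MICT1 KO, and in Dcn, with 364.7 and 9707. Col3a1, another large part of the sum, was not called, with means of 16430 and 15860. Of the 7 progenitor and fibroblast markers tested, 4 were higher and 2 were lower. The paper reports lower adipogenic genes in its knockout cells and considers it plausible that the deletion affected differentiation in culture. It found no change in such genes after knockdown in already differentiated cells. In brown adipose tissue of its knockout mice it found no significant difference in them. The part of the adipocyte and progenitor markers in the differences of the 8 genes was not tested. In bulk RNA, fewer adipocytes and less RNA of a gene per adipocyte cannot be told apart.

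Cells make cholesterol from acetyl-CoA in a long chain of reactions. Condensation steps yield HMG-CoA, which is reduced to mevalonate and built up into isoprene units, and these are joined into farnesyl diphosphate. Farnesyl diphosphate is the branch point: it leads to squalene and the sterols, but also to prenylated proteins, ubiquinone and dolichol. Most enzymes of the chain are controlled at transcription by SREBP2, a factor that is held in the endoplasmic reticulum as an inactive precursor. When membrane sterols are low, the escort protein SCAP carries SREBP2 to the Golgi, where proteases release the active part. When sterols are high, INSIG proteins hold SCAP back. Liver X receptors respond to oxysterols and drive the opposite program of cholesterol efflux. Adipocytes hold a large store of cholesterol in their membranes and lipid droplets, most of it unesterified.

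The start sites of 3 of the 8 genes are shown because they differ in the letters that the sterol pathway is known for. Hmgcs1 fell most, Insig1 is a feedback regulator gene that also fell, and Idi1 was not called. Each sequence is the 250 bases before the RefSeq transcription start on GRCm38.p6, and all are from the plus strand. They lie at chr13:119690101-119690350 for Hmgcs1, chr5:28071162-28071411 for Insig1 and chr13:8885356-8885605 for Idi1. Capitals mark CCAAT, the letters bound by NF-Y and written ATTGG where they lie on the other strand. Capitals also mark the E-box CACGTG in Insig1 and a sterol regulatory element of the form TCACNCCAC in Hmgcs1, where N is any base.
Hmgcs1: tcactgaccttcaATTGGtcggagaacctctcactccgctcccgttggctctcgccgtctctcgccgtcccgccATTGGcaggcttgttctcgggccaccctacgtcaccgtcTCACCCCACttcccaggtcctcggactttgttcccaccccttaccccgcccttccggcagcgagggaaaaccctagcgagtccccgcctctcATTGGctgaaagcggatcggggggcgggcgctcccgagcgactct
Insig1: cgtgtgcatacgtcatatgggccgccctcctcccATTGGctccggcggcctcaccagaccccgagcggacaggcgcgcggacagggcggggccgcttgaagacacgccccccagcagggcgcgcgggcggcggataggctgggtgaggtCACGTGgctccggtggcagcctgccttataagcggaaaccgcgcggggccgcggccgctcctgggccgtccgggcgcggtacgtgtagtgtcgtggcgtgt
Idi1: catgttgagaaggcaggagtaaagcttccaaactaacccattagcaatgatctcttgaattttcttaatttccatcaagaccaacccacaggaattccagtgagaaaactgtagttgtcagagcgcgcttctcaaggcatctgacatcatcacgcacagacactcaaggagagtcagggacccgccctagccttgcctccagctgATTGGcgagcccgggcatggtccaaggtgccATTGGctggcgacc

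The reference table gave such a sequence for 5 of the 8 genes, Hmgcs1, Idi1, Cyp51, Srebf2 and Insig1. On either strand, CCAAT was found in 5 of 5, compared with 33.8% of 32851 promoters of the same length. The TCACNCCAC element was found in Hmgcs1 alone of the 5, with its first base 137 bases before the start, and in 1.05% of all promoters. The CACGTG box was found in Insig1 alone of the 5, 101 bases before the start, and in 6.02% of all promoters. The GC box GGGCGG, which is not capitalised, was found in 5 of 5 and in 32.7% of all promoters. Thus Idi1, which was not called, held the same CCAAT letters as Hmgcs1, Cyp51, Srebf2 and Insig1, which fell. These matches describe letters only, and binding was not measured. Of 14 other cholesterol synthesis genes, all with a promoter in the table, 12 held CCAAT, 3 held CACGTG, 13 held GGGCGG and 0 held TCACNCCAC. A gene was counted if any of its start sites held the letters, and Pmvk and Dhcr7 had several. The shares among all promoters count single promoters, so they are not fully alike.

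Across all genes, limma-trend with Benjamini-Hochberg adjustment called 7113 of the 12507 tested, or 56.9%. Of all genes, 28.3% were lower and 28.5% were higher in MICT1 KO. Against this background, 6 of the 8 genes (Hmgcs1, Sqle, Fdps, Insig1, Cyp51 and Srebf2) were lower and 0 were higher. The same 6 had all 3 MICT1 KO values below all 3 Scr values, which was true of 31.2% of all genes. By the rule of a 1.8-fold decrease with an unadjusted p under 0.05, 4 of the 8 were lower (Hmgcs1, Sqle, Fdps and Insig1), and 7.39% of all genes were. The 8 genes had a median log2 fold change of -0.72, and all genes tested had one of -0.0053. Fold changes throughout are on the log2(value + 1) scale, MICT1 KO against Scr.

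**Figure D1:**
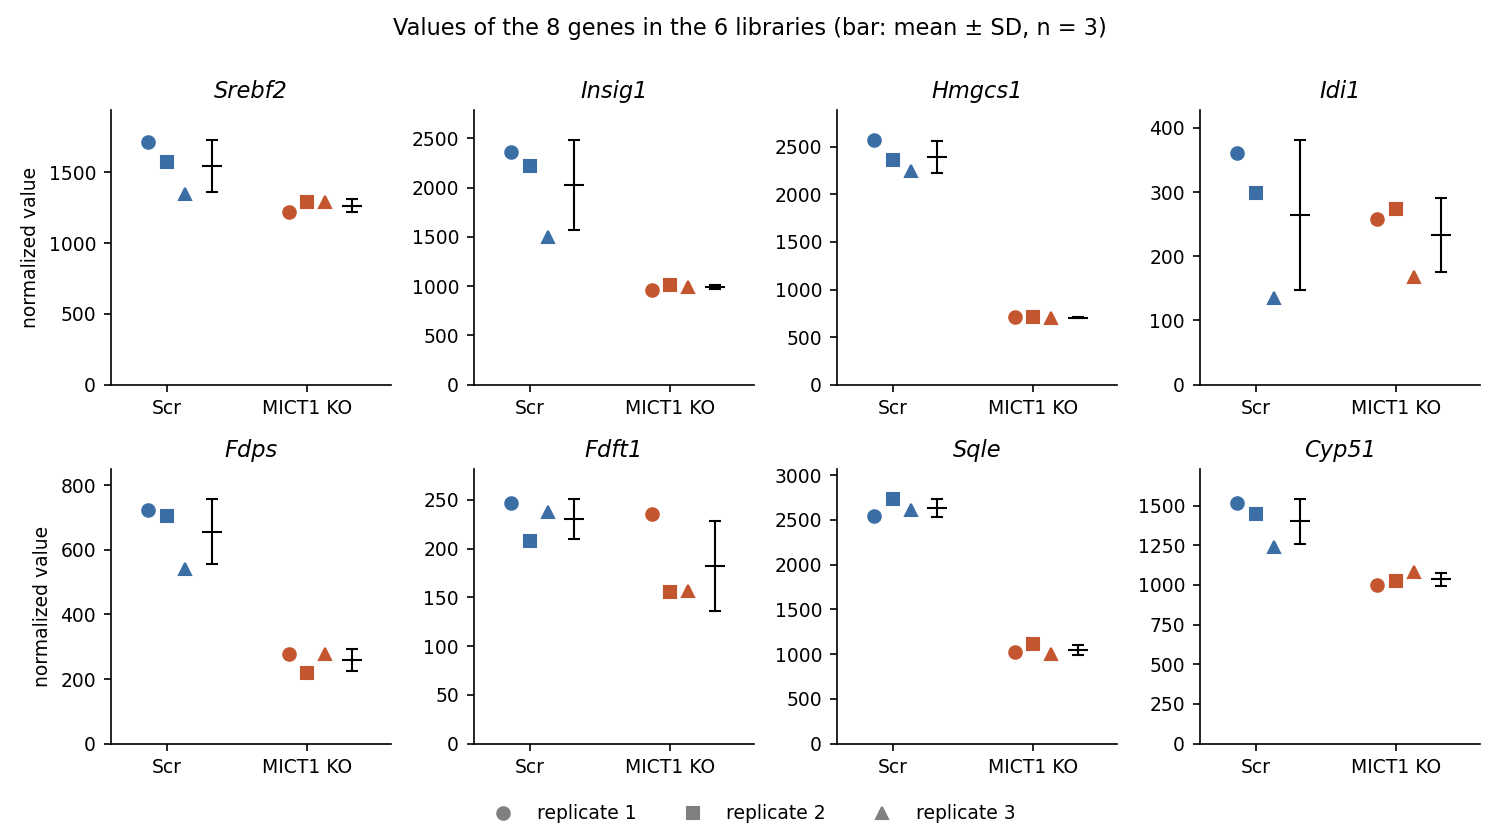
Normalized values (vertical axis, starting at 0) of the 8 genes in the 3 Scr (blue) and 3 MICT1 KO (orange) libraries, with symbols for the replicates and black bars for the mean ± SD. Hmgcs1, Sqle, Fdps and Insig1 show wide gaps between the groups, Cyp51 and Srebf2 narrow ones, and the Idi1 and Fdft1 values overlap.

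Among the regulators, Srebf2 (chr15:82147269-82205379, GRCm38) encodes SREBP2. Its normalized values were 1713, 1576 and 1346 in Scr against 1216, 1290 and 1289 in MICT1 KO. The lowest Scr library was only slightly above the highest MICT1 KO library, and the groups did not overlap. Srebf2 fell from 1545 ± 185.3 to 1265 ± 42.7 (SD, n = 3 each), giving a log2 fold change of -0.28 with an SE of 0.078 (limma, adjusted p = 0.00433). Omitting single libraries gave Srebf2 log2 fold changes from -0.38 to -0.20, with adjusted p by limma up to 0.0452.

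Insig1 (chr5:28071412-28078662) encodes an endoplasmic reticulum protein that retains SCAP when sterols are plentiful, and it is itself an SREBP target. The Scr values were 2359, 2218 and 1500, and the MICT1 KO values were 964.8, 1009 and 993.0. All 3 MICT1 KO libraries were close together, with a coefficient of variation of 2.28%, whereas the Scr libraries, with replicate 3 low, varied by 22.8%. The mean fell from 2026 ± 460.8 to 989.1 ± 22.6 (SD, n = 3), giving a log2 fold change of -1.01 with an SE of 0.11 (limma, adjusted p = 1.22e-07). Omitting single libraries gave Insig1 log2 fold changes between -1.21 and -0.88.

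Hmgcs1 (chr13:119690351-119708260) encodes the cytosolic HMG-CoA synthase at the entry to the mevalonate pathway. Its values were 2576, 2363 and 2249 in Scr against 708.3, 708.0 and 695.5 in MICT1 KO. Every MICT1 KO library was far below every Scr library, and the MICT1 KO values differed from each other by a coefficient of variation of only 1.04%. Hmgcs1 fell from 2396 ± 165.9 to 704.0 ± 7.31 (SD, n = 3), giving a log2 fold change of -1.76 with an SE of 0.069 (limma, adjusted p = 7.78e-15). Per exon length, this was a drop from 31.9 to 9.39 RPKM (reads scaled to exon length and to the library total).

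Idi1 (chr13:8885606-8892396) encodes the isomerase that interconverts the isoprene units. It had values of 361.3, 298.1 and 134.4 in Scr against 257.8, 274.4 and 167.3 in MICT1 KO. Replicate 3 was the lowest library in both groups, and the MICT1 KO values all lay within the Scr range. The log2 fold change of -0.10 had a 95% interval from -0.62 to 0.43 and an adjusted p of 0.764 by limma, and this interval also covers decreases of the size seen in Srebf2 and Cyp51. Without Scr replicate 3 the log2 fold change was -0.52 and limma gave an adjusted p of 0.0204, while without Scr replicate 1 it was 0.19.

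Fdps (chr3:89093588-89101967) encodes the synthase of farnesyl diphosphate, the branch point of the pathway. Its values were 725.0, 705.4 and 540.3 in Scr against 278.4, 220.2 and 278.8 in MICT1 KO. The lowest Scr library was well above the highest MICT1 KO library. Fdps fell from 656.9 ± 101.4 to 259.1 ± 33.7 (SD, n = 3), a 2.52-fold decrease with an SE of 0.13 on the log2 scale (limma, adjusted p = 1.15e-08). It went from 9.54 to 3.77 RPKM.

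Fdft1 (chr14:63145150-63181687) encodes squalene synthase, which commits farnesyl diphosphate to sterols. The Scr values were 247.1, 207.7 and 237.3, and the MICT1 KO values were 235.7, 155.2 and 156.1. Replicates 2 and 3 of MICT1 KO were below all Scr libraries, but MICT1 KO replicate 1 lay between Scr replicates 2 and 3. The log2 fold change was -0.36 with a 95% interval from -0.71 to -0.02, and the adjusted p by limma was 0.0662. Without MICT1 KO replicate 1 the log2 fold change was -0.56 and the adjusted p by limma was 0.00527.

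Idi1 and Fdft1 also differed from the other 6 genes in how their reads were counted. Multiplied back by the size factors, the values of Hmgcs1, Sqle, Fdps, Cyp51, Srebf2 and Insig1 were whole reads in 6 of 6 libraries, within 0.05 of a read. Idi1 was whole in 1 of 6 and Fdft1 in 0 of 6, as happens when reads are divided between features. The values of both genes are therefore less certain. Whether this had a part in the missing calls of Idi1 and Fdft1 was not tested. Reads were also not whole throughout for some genes named below. Scd1, Scd2 and Acat2 were whole in 1 of 6 libraries each, Ubxn8 in 0 of 6 and Pdss1 in 3 of 6.

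Sqle (chr15:59315092-59331193) encodes squalene epoxidase, which carries out the first oxygenation on the way to sterols. Its values were 2548, 2737 and 2613 in Scr against 1026, 1109 and 1006 in MICT1 KO. Both groups were tight and far apart. Sqle fell from 2633 ± 96.3 to 1047 ± 54.7 (SD, n = 3), giving a log2 fold change of -1.33 with an SE of 0.064 (limma, adjusted p = 2.61e-13).

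Cyp51 (chr5:4080674-4104697) encodes lanosterol demethylase, the cytochrome P450 of the pathway. The values were 1516, 1445 and 1242 in Scr against 998.2, 1025 and 1081 in MICT1 KO. The groups did not overlap, although the gap between Scr replicate 3 and MICT1 KO replicate 3 was small. Cyp51 fell from 1401 ± 142.1 to 1035 ± 42.3 (SD, n = 3), giving a log2 fold change of -0.43 with an SE of 0.077 (limma, adjusted p = 6.84e-05). The later enzyme step thus showed a smaller decrease than Sqle, although the difference between the genes was not tested.

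By RPKM, which compares levels between genes per length, Insig1 was the highest of the 8 in Scr cells at 40.0 ± 9.29 (SD, n = 3), followed by Hmgcs1 at 31.9 ± 2.60 and Sqle at 29.0 ± 0.625 RPKM. Neighbours among these 3 did not differ beyond their spread. Cyp51 at 19.4 ± 2.09, Srebf2 at 13.2 ± 1.69 and Fdps at 9.54 ± 1.51 RPKM came next, each apart from the one before. The lowest were Idi1 at 4.62 ± 2.08 and Fdft1 at 3.34 ± 0.345 RPKM, which again lay within their spread. In MICT1 KO cells Insig1 stayed the highest at 19.6 ± 0.555, with Cyp51 at 14.4 ± 0.663 RPKM in the second place. Sqle at 11.6 ± 0.626 and Srebf2 at 10.8 ± 0.430 RPKM lay within their spread, and Hmgcs1 followed at 9.39 ± 0.0765 RPKM. Idi1 at 4.07 ± 0.999, Fdps at 3.77 ± 0.483 and Fdft1 at 2.64 ± 0.651 RPKM formed the low end, with Idi1 and Fdps within the spread of Idi1. Hmgcs1 thus moved from the second to the fifth place, and Cyp51 from the fourth to the second.

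Ratios of RPKM within each library showed how far related genes moved apart. Insig1 was 1.35 to 2.26 times Insig2 in Scr and 0.933 to 1.02 times in MICT1 KO. This ratio separated the groups without overlap, and of the pair only Insig1 was called. Idi1 was 0.299 to 0.598 times Fdps in Scr and 0.720 times or more in MICT1 KO, and Fdft1 was 0.0996 to 0.127 times Sqle in Scr and 0.184 to 0.301 times in MICT1 KO. These higher ratios in MICT1 KO follow from the falls of Fdps and Sqle beside genes that were not called, and are not separate results. The values of Idi1 and Fdft1 are also the less certain ones. Srebf2 was 0.333 to 0.423 times Srebf1 in Scr and 0.731 to 0.770 times in MICT1 KO, with the larger decrease in Srebf1.

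Within the Scr group, several of the 8 genes were low in the same library. Scr replicate 3 was the lowest Scr library for 6 of the 8 genes, all but Sqle and Fdft1, and Scr replicate 1 was the highest for 7 of the 8. The median deviation of the 8 genes from their Scr mean was -0.18 on the log2 scale in Scr replicate 3, compared with 0.0039 for all genes. Among the 14 other synthesis genes, Scr replicates 2 and 3 were each the lowest Scr library for 7, whereas in Scr replicate 3 the adipocyte markers deviated upwards, by a median of 0.16. Omitting Scr replicate 3 left the same 6 genes called lower and added Idi1.

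**Figure D2:**
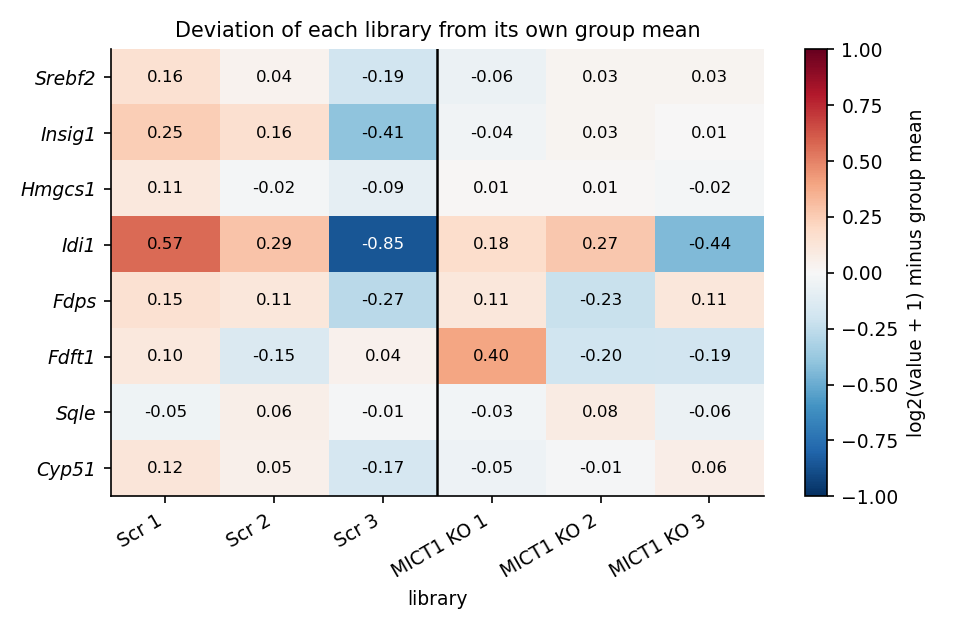
Deviation of each library (horizontal axis) from the mean of its own group in log2(value + 1), for the 8 genes (vertical axis), with blue for values below and red for values above the mean. Scr 3 is negative for Hmgcs1, Sqle, Idi1, Fdps, Cyp51, Srebf2 and Insig1, down to -0.85 for Idi1, while Hmgcs1, Cyp51, Srebf2 and Insig1 deviate little in the MICT1 KO libraries.

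The rest of the cholesterol synthesis chain was examined with 14 further genes, all of them tested. Of these, 8 were lower, 1 was higher and 5 were not called, and the median log2 fold change was -0.53. Counts of this and the following lists stand beside 28.3% lower and 28.5% higher among all genes. The largest decreases were those of Tm7sf2, a sterol reductase expressed at only 0.963 RPKM in Scr cells, with a log2 fold change of -2.14 (limma, adjusted p = 1.31e-05) and of the phosphomevalonate kinase gene Pmvk at -1.74 (limma, adjusted p = 6.88e-11). Pmvk had values of 862.5, 652.6 and 679.7 in Scr against 198.3, 217.0 and 235.3 in MICT1 KO. Smaller log2 decreases were found for Hsd17b7 (-0.74), Msmo1 (-0.68), Dhcr7 (-0.65), Nsdhl (-0.62), Mvd (-0.55) and Lss (-0.50). These genes act between mevalonate and the last double bond reductions.

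Lbr, which encodes a nuclear envelope protein with the same sterol reductase activity as Tm7sf2, rose by 0.20 on the log2 scale (limma, adjusted p = 0.0104). Without MICT1 KO replicate 3 it lost its call, with a log2 fold change of 0.15 and an adjusted p of 0.079 by limma. The genes without a call were, with their log2 fold changes, Acat2 (0.023), Mvk (0.19), Ebp (0.028), Sc5d (-0.22) and the scaffold gene Erg28 (0.028).

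**Figure D3:**
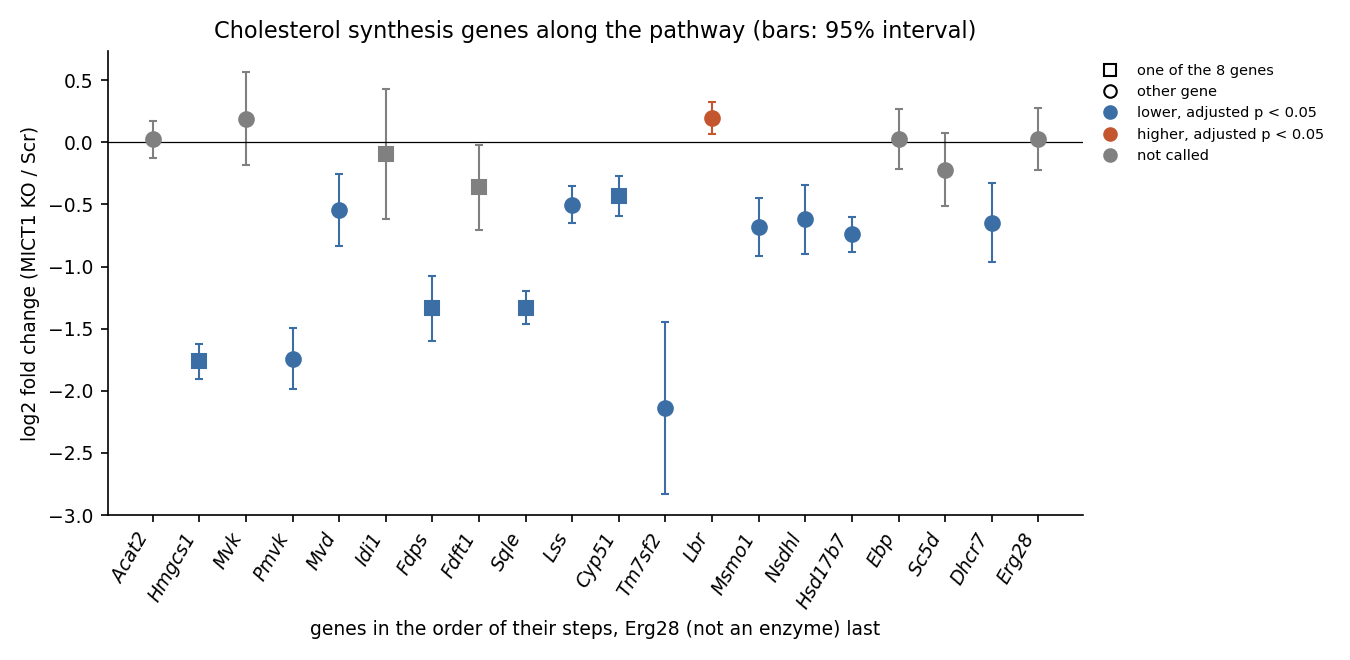
Log2 fold change, MICT1 KO against Scr, with its 95% interval (vertical axis) for 20 cholesterol synthesis genes in the order of their steps (horizontal axis), with squares for the 6 enzyme genes described above and circles for the 14 others. Genes lower in MICT1 KO (blue) lie along the whole chain, next to genes without a call (gray) such as Acat2, Idi1 and Fdft1, and Lbr is the single gene called higher (orange).

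Of 12 genes that process or regulate SREBP proteins, 5 were lower, 2 were higher and 5 were not called, and the median log2 fold change was -0.13. Among all genes 28.3% were lower and 28.5% were higher, not far from these counts. Srebf1, which encodes SREBP1 and is best known for fatty acid synthesis, fell by 1.21 on the log2 scale (limma, adjusted p = 4.79e-13), with values of 3179, 2929 and 3171 in Scr against 1304, 1314 and 1380 in MICT1 KO. Trib1, a pseudokinase linked to lipid control, fell similarly, with a log2 fold change of -1.20. The escort gene Scap (log2 fold change -0.30), the protease gene Mbtps2 (-0.33) and the ubiquitin ligase gene Rnf139 (-0.30) showed small decreases. The Rnf139 call was lost when any one of 4 libraries was omitted, and its reads, like those of Idi1, were not whole.

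Fbxw7, whose product marks active SREBP for degradation, rose by 1.23 on the log2 scale (limma, adjusted p = 7.17e-11), with values of 393.7, 421.8 and 430.4 in Scr against 982.9, 990.4 and 950.5 in MICT1 KO. Mbtps1, the other SREBP protease, rose by 0.23 on the log2 scale. Insig2, the second INSIG gene, was at 20.7 RPKM in Scr and 20.4 RPKM in MICT1 KO and was not called, unlike Insig1. Its log2 fold change was -0.025 with an adjusted p of 0.786 by limma. Rnf145 (log2 fold change -0.058), Ubxn8 (-0.20), Erlin1 (-0.024) and Erlin2 (0.14), whose products act in sterol-regulated degradation at the endoplasmic reticulum, did not pass either.

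Uptake and intracellular transport were represented by 17 genes, of which 7 were lower, 4 were higher and 6 were not called, and the median log2 fold change was -0.11. These counts are not far from the shares among all genes, 28.3% lower and 28.5% higher. Vldlr, the receptor for triglyceride-rich lipoproteins, fell by 0.81 on the log2 scale (limma, adjusted p = 1.15e-06). Its values were 513.3, 601.6 and 567.8 in Scr against 334.6, 328.7 and 297.5 in MICT1 KO, without overlap. Scarb1, the scavenger receptor for high-density lipoprotein, fell by 0.78 on the log2 scale (limma, adjusted p = 3.27e-10). Gramd1b, which carries accessible cholesterol from the plasma membrane to the endoplasmic reticulum, had the largest decrease of the list, with a log2 fold change of -1.93.

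The receptor genes did not all fall. Lrp1 rose by 0.58 on the log2 scale (limma, adjusted p = 2.71e-08) and Lrp8 rose by 0.44 (limma, adjusted p = 0.00307). Mylip, which encodes a ubiquitin ligase for lipoprotein receptors, rose by 0.43 on the log2 scale (limma, adjusted p = 0.00969), but without Scr replicate 3 its adjusted p by limma was 0.0661.

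Of 13 efflux, storage and liver X receptor genes tested, 7 were lower, 2 were higher and 4 were not called, and the median log2 fold change was -0.47, or -0.93 when only genes that reached 4 RPKM were tested. The efflux pump genes Abcg1 and Abca1 had larger log2 decreases than any of the 8 genes. Their log2 fold changes were -4.02 (limma, adjusted p = 6.08e-15) and -3.13 (limma, adjusted p = 2.75e-17). Abca7, another pump gene of the list, was not called, with a log2 fold change of -0.051 (limma, adjusted p = 0.715). Abca1 had values of 4140, 4475 and 5358 in Scr against 476.7, 543.7 and 571.1 in MICT1 KO. Nr1h3, the gene of liver X receptor alpha, fell by 3.03 on the log2 scale (limma, adjusted p = 1.16e-10). Nceh1, which hydrolyses cholesteryl esters, rose 4.64-fold, and the esterifying enzyme gene Soat2 rose 2.83-fold. Both rose from low levels in Scr, 0.561 and 0.766 RPKM, and neither would be tested with the filter at 4 RPKM. Soat1, the other esterifying enzyme gene, fell from 16.0 to 11.6 RPKM, a log2 fold change of -0.47 (limma, adjusted p = 2.19e-06).

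**Figure D4:**
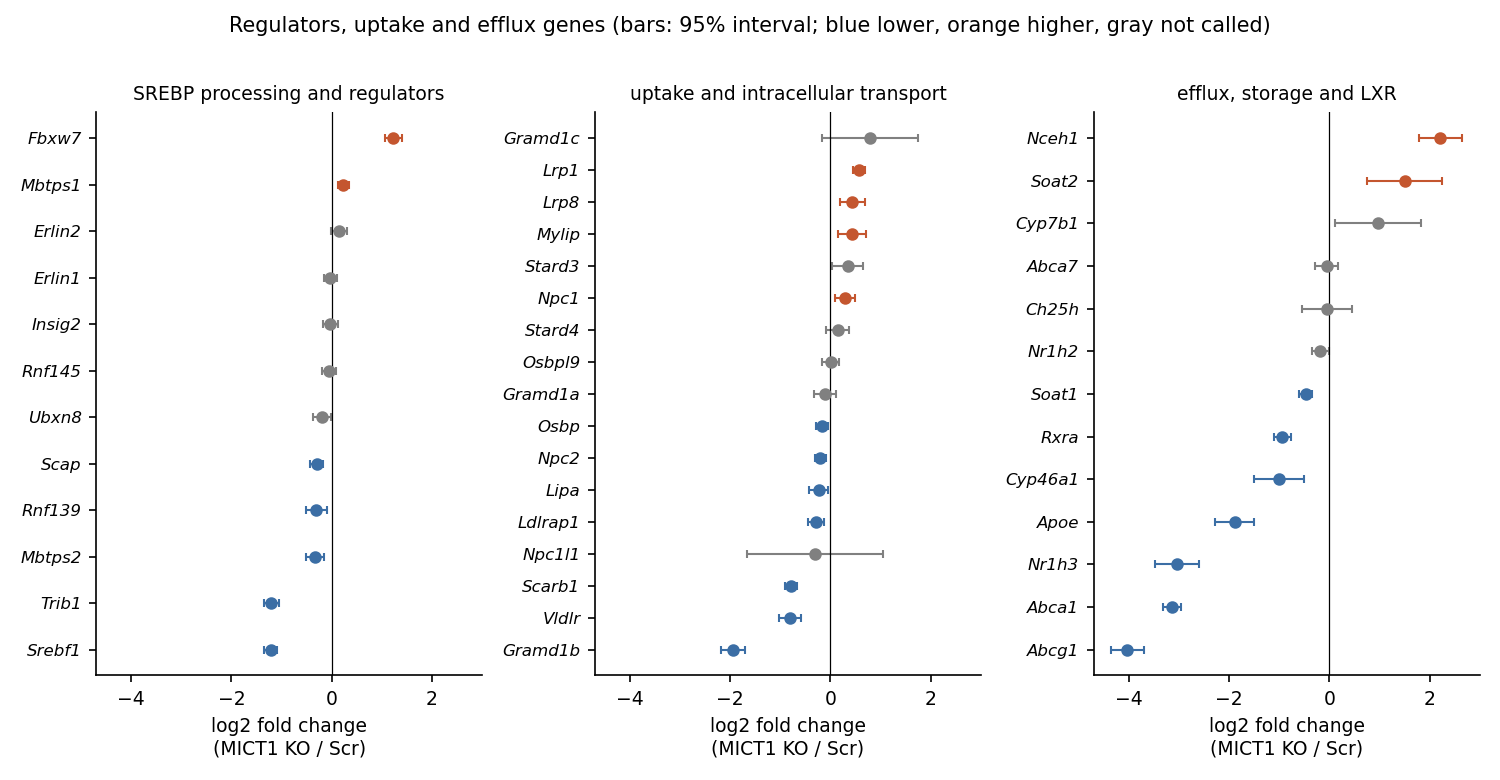
Log2 fold change, MICT1 KO against Scr, with its 95% interval (horizontal axes) for the tested genes of 3 lists, sorted by size, with blue for lower, orange for higher and gray for genes not called. Abcg1, Abca1 and Nr1h3 lie below -3 in the efflux list, Vldlr and Scarb1 lie between -1 and 0 in the uptake list, and Srebf1 at -1.21 is the lowest of the SREBP list.

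Fatty acid synthesis genes known as SREBP1 targets gave 7 lower, 4 higher and 1 not called among 12 tested, with a median log2 fold change of -0.28. When only genes that reached 4 RPKM were tested, the median was -0.17 and 5 were lower, beside 33.65% of all genes tested. The lowest log2 fold changes of the list were those of Pnpla3 (-3.75), Scd1 (-3.50) and Scd2 (-2.34). Mid1ip1 (log2 fold change 0.66), Fads2 (0.35) and Fasn (0.30) rose. The Fads2 call was lost when MICT1 KO replicate 2 or 3 was omitted.

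As a description over the 6 libraries, the genes whose log2 values followed the mean of the 8 genes most closely were Crtc1 (Pearson r = 0.998), Dnmbp and Hspa12a (both 0.996), Xbp1 (0.996) and Adrm1 (0.993). The libraries fall into the 2 groups, and a gene that differs between them follows this mean in part for that reason. Xbp1 had values of 4073, 3793 and 3110 in Scr against 1789, 1706 and 1700 in MICT1 KO, with the same low Scr replicate 3 as Insig1. Of the 8 genes themselves, Insig1 followed the mean most closely (r = 0.99) and Idi1 least (r = 0.38). Each of the 8 genes is part of this mean, so its r is in part built in.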

How the data were processed

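RNA-seq of 6 libraries (3 Scr, 3 MICT1 KO) was grouped from the sample titles. The authors deposited one table with a normalized signal per gene, which the values show to be estimated reads scaled by median-ratio size factors (0.949 to 1.08). According to the methods, reads were aligned in Partek to mm10, and the submitters' processing notes also list STAR and DESeq2. The counting model is not given in the sources used here. Of values under 20, 88.7% to 90.2% were whole reads within 0.01, too few for a count test. The table lists no gene at 0.

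Differences were tested with limma-trend (limma 3.58.1, R 4.3.3) on log2(value + 1), group as the only term, for the 12507 genes that reached a value of 10 in 3 or more libraries. Benjamini-Hochberg adjustment was over all of them, with a threshold of 0.05. The functions were tested on simulated data. RPKM used GENCODE vM21 exon lengths, found for 13117 genes (98.8%), 187 through older symbols. Promoters and positions are from RefSeq (GRCm38.p6). The named genes were the 8 genes, all tested synthesis and SREBP genes, the 3 largest called rises and falls of each other list, and the 5 genes most correlated with the mean. Genes without a call, Soat1 and markers were named as exceptions. Some genes of the lists are not reported here, and counts and medians of a list leave them out. The genes and lists were chosen with earlier results of these data known. Same-numbered libraries did not deviate together (r from -0.024 to 0.064). Alternatives were library size or upper quartile scaling, pseudocounts of 0.5 and 5, no filter or a filter at RPKM 4, limma-voom, a replicate block, each library left out, and a rule of 1.8-fold with unadjusted p. Precision rests on 3 cultures per group of 1 cell line.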

Additional observations from a re-analysis of the deposited data

How the results depend on the processing

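The 6 decreases among the 8 genes (Hmgcs1, Sqle, Fdps, Insig1, Cyp51 and Srebf2) kept their direction and call in every alternative fit run, while the 1.8-fold rule called 4 of the 6. Idi1 ranged from -0.52 to 0.19 when single libraries were omitted. The median of the 8 genes was -0.68 with upper quartile scaling and -0.87 to -0.63 with one library omitted. It was -1.01 with a filter at RPKM 4, where 7 genes were tested and 6 were lower. With that filter 33.65% of the 8481 genes tested were lower. Upper quartile scaling moved the median of all genes to 0.032 and reversed Insig2 (0.013) and Erlin1 (0.014), neither of them called. Under the RPKM filter 0 efflux genes were called higher, since Nceh1 and Soat2 were not tested. Leaving out each library gave ranges of -0.047 to 0.16 for Ebp, -0.012 to 0.068 for Acat2, -0.055 to 0.10 for Erg28, -0.071 to 0.021 for Insig2 and -0.069 to 0.0061 for Erlin1, and of 3 to 5 isoprenoid genes and 0 to 1 other synthesis genes called lower and higher, respectively. The rule of 1.8-fold with unadjusted p called 924 genes lower and 1265 higher. With the replicate block, Fdft1 passed at an adjusted p of 0.0470 by limma (log2 fold change -0.36). The block changed no other call among the 8 genes, and the shared numbers did not pair the samples. The cause of these shifts was not tested. Depth limits Tm7sf2, with 11 to 82 reads per library, more than the 8 genes, which had 132 reads or more.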

Other observations

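Other branches draw on the same isoprene units as cholesterol. Of 14 tested genes of prenylation, dolichol, ubiquinone and tRNA modification, 5 were lower, 4 were higher and 5 were not called, and the median log2 fold change was -0.14. Shares of 28.3% lower and 28.5% higher among all genes are near these counts. The number lower was 3 when Scr replicate 2 was omitted. Nus1, a subunit of the enzyme that makes the dolichol chain, was at 301 RPKM in Scr cells and 163 RPKM in MICT1 KO cells, a log2 fold change of -0.89 (limma, adjusted p = 1.30e-11). Its values were 22390, 24390 and 25190 in Scr against 12760, 12820 and 13150 in MICT1 KO, without overlap. The farnesyltransferase subunits moved apart, with log2 fold changes of 0.48 for Fnta and -0.45 for Fntb (limma, adjusted p = 3.40e-05 and 5.04e-04). Pdss1, a subunit of the enzyme that makes the ubiquinone side chain, fell by 0.43 on the log2 scale. Pdss2, the other subunit, was not called, with a log2 fold change of -0.11 (limma, adjusted p = 0.634). Coq2, which attaches the side chain, rose by 0.42 on the log2 scale. Icmt, the methyltransferase of prenylated proteins, rose by 0.32 on the log2 scale.

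Few markers of other cell types were in the table. Of the macrophage markers 4 of 10 were in the table, summing to 267.1 to 383.8 in Scr and 516.2 to 638.5 in MICT1 KO, and Cd14 alone of them rose, by 1.24 on the log2 scale, from 6.77 to 15.7 RPKM. Cdh5 was the only one of 8 endothelial markers in the table, with values up to 12.05 in Scr and up to 33.37 in MICT1 KO, and it rose by 1.71 on the log2 scale. Of 8 skeletal muscle markers 2 were in the table, with sums of 24.1 to 35.6 in Scr and 17.9 to 26.9 in MICT1 KO. Among progenitor genes, Dcn, a matrix proteoglycan of fibroblasts, rose by 4.75 on the log2 scale and Dlk1, a preadipocyte marker, fell by 3.47 on the log2 scale. Of 4 brown adipocyte markers tested, 2 were lower (Ucp1 and Zic1), 1 was higher (Ebf2) and Cox7a1 was not called. Zic1, a brown lineage marker, fell by 0.66 on the log2 scale, whereas Ebf2, another, rose by 1.24 on the log2 scale.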
